A study of Mus musculus with 14 samples.

Results

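The genes described here encode proteins of the contacts between hepatocytes, the parenchymal cells of the liver. They are the connexin genes Gjb1, Gjb2 and Gja1, the cadherin genes Cdh1 and Cdh2, and Ctnnb1, which encodes beta-catenin. The 6 were taken by symbol from a table of 21878 genes, and all 6 passed the filter on low counts. RNA of C57BL/6 liver cells was sequenced in 14 libraries that form 7 groups of 2. LBDXL 3W are hepatocytes kept for 3 weeks in the culture named LBDXL. BM 3W Yap-/- are hepatocytes labelled Yap-/- after 3 weeks in the culture named BM, and FH Yap-/- are hepatocytes labelled Yap-/- taken right after isolation. FH are freshly isolated hepatocytes without that label, and BM 1D, BM 3D and BM 3W are such cells after 1 day, 3 days and 3 weeks in BM. The labels expand neither culture name, do not say how or in which cells Yap was deleted, and give no age or sex. Nothing in them ties the 2 libraries of a group to different mice or dishes, and a p-value here reflects the scatter of these libraries, which may be technical.

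Cadherins are adhesion proteins that bind their like on the neighbouring cell, and beta-catenin links their cytoplasmic tails through alpha-catenin to actin. Hepatocytes carry both E-cadherin, the product of Cdh1, which in mouse liver is strongest around the portal veins, and N-cadherin, the product of Cdh2. Connexins form gap junctions, the channels that couple hepatocytes to each other for ions and small metabolites. In liver the products of Gjb1 and Gjb2 are the connexins of the hepatocyte, while Gja1 is known from stellate, endothelial and other nonparenchymal cells. Beta-catenin also acts as the transcriptional effector of Wnt signalling, and unbound beta-catenin is degraded after phosphorylation in a complex with Axin and Apc.

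Levels are CPM, counts divided by a library size that was scaled by the trimmed mean of M-values (TMM), and total counts ran from 15501005 to 21220365 per library. Of 8 hepatocyte markers none was at 0 counts in any library, and their summed level ran from 162357 to 207303 CPM in LBDXL 3W, from 97377 to 113184 in BM 3W Yap-/-, from 243775 to 253330 in FH Yap-/- and from 215090 to 217912 in FH. It ran from 34738 to 81662 CPM over the BM 1D and BM 3D libraries, and stood at 32437 and 3364 CPM in the BM 3W libraries, so the hepatocyte label rests on little hepatocyte RNA in BM 3W 2. Yap1, the gene named by the label, stood at 6.66 and 7.75 CPM in BM 3W Yap-/- against 80.2 and 95.5 in BM 3W, and at 23.1 and 26.5 CPM in FH Yap-/- against 87.6 and 97.6 in FH. The scaling factors differed widely, from 0.65 in FH to 1.69 in BM 3W 2. By total counts alone the median of all 14100 genes tested moved against FH from 0.17 to 1.08 (log2) in BM 1D, from 0.17 to 1.11 in BM 3D, from 0.17 to 1.46 in BM 3W and from 0.09 to 0.57 in LBDXL 3W, and against BM 3W it moved from -0.02 to -0.84 in LBDXL 3W and from -0.03 to -0.66 in BM 3W Yap-/-.

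The sequences upstream of the 3 connexin genes are shown because these genes had the widest range of levels, and because Gja1 was higher in the BM series than in FH where Gjb1 and Gjb2 were lower. Each is the run of 250 bases that ends right before a transcription start in RefSeq on GRCm38.p6, written 5′ to 3′ on the strand of the gene. Windows of 4 of the 6 genes were searched for motifs, namely Gja1, Gjb1, Gjb2 and Ctnnb1. The cadherin genes were not searched, so nothing is said here about motifs before them. Gja1 lies at chr10:56377050-56377299 on the plus strand, Gjb2 at chr14:57104703-57104952 on the minus strand, and Gjb1 at chrX:101383482-101383731 on the plus strand, before the last of 4 starts that RefSeq gives for that gene. Windows before the other Gjb1 starts are not printed. Which Gjb1 start these cells used was not tested, so the printed window may not be the one in use.
Gja1: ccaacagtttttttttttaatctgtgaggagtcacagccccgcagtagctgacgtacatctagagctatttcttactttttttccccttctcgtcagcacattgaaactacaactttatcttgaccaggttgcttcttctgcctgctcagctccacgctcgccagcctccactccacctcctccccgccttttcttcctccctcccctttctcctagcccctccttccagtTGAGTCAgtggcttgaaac
Gjb2: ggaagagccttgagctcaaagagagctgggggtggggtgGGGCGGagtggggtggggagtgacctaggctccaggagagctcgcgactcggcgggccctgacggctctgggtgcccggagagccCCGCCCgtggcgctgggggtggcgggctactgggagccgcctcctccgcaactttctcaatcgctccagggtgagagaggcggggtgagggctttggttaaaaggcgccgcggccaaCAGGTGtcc
Gjb1: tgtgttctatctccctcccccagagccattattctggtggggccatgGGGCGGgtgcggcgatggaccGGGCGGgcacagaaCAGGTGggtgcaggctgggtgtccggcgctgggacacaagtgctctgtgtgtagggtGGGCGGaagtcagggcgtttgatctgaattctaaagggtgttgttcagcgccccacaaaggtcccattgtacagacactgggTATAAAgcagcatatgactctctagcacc
Capitals mark matches on either strand to 5 short motifs, none of which overlapped another in these windows. The motifs were the AP-1 site TGANTCA, the E-box CAGGTG, the GC box GGGCGG of Sp1, the TATA box TATAAA and the TEAD core GGAATG. The Gja1 window holds an AP-1 site 19 to 13 bases before the start, a motif present in 6.75% of all 32851 mouse windows of this length. The Gjb2 window holds an E-box 9 to 4 bases before the start, which 17.2% of all windows hold, and GC boxes at 211 and 126 bases, which 32.7% hold. The Gjb1 window holds a TATA box at 29 to 24 bases, found in 12.4% of all windows, an E-box at 168 bases and 3 GC boxes. Of the 8 windows of the 4 genes, a TEAD core, found in 12.6% of all windows, was present only in that of the second Gjb1 start, 226 to 221 bases before it. A match describes letters and is no measured site.

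Gjb1, whose product is the main gap junction protein of the hepatocyte, was high in all fresh cells, intermediate after 3 weeks in LBDXL or without Yap, and low at every time of wild-type BM culture. Its level was 258 and 341 CPM in LBDXL 3W, 409 and 372 CPM in BM 3W Yap-/-, and 586 and 529 CPM in FH Yap-/-. Over the BM series it was 793 and 778 CPM in FH, 22.9 and 43.6 in BM 1D, 75.4 and 107 in BM 3D, and 70.2 and 29.1 in BM 3W. No library of LBDXL 3W or BM 3W Yap-/- overlapped either FH or any BM library. From the highest mean to the lowest the order was FH, FH Yap-/-, BM 3W Yap-/-, LBDXL 3W, BM 3D, BM 3W and BM 1D, and only the last neighbours, BM 3W and BM 1D, overlapped. In bulk RNA, fewer cells of a type and less RNA per cell cannot be told apart.

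Gjb2, whose product forms gap junctions alone or together with that of Gjb1, was likewise highest in fresh cells by CPM and low in BM 1D and BM 3W. Its level was 304 and 326 CPM in LBDXL 3W, 279 and 236 CPM in BM 3W Yap-/-, and 505 and 482 CPM in FH Yap-/-. In the BM series it was 458 and 444 CPM in FH, 32.8 and 25.3 in BM 1D, 163 and 112 in BM 3D, and 37.2 and 11.4 in BM 3W. Both BM 3D libraries lay above all BM 1D and BM 3W libraries, and below those of LBDXL 3W and BM 3W Yap-/-. The order of CPM means was FH Yap-/-, FH, LBDXL 3W, BM 3W Yap-/-, BM 3D, BM 1D and BM 3W, of which only BM 1D and BM 3W overlapped. By FPKM LBDXL 3W, at 86.4 and 107.5, overlapped FH, at 91.1 and 88.8. The library with the lowest Gjb2 and the lower Gjb1 of its group, BM 3W 2, was also the one with the least hepatocyte marker RNA, 3364 CPM, and the part of the number of hepatocytes in these levels was not tested.

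Gja1, the connexin of nonparenchymal cells, was a low-level gene in every library. It had 9.30 and 3.38 CPM in LBDXL 3W, 0.535 and 2.51 CPM in BM 3W Yap-/-, and 2.42 and 4.16 CPM in FH Yap-/-. Along the BM series it had 1.91 and 1.19 CPM in FH, 4.56 and 9.79 in BM 1D, 6.36 and 11.4 in BM 3D, and 7.06 and 9.94 in BM 3W. The BM 3W Yap-/- levels rest on 11 and 50 counts and those of FH on 24 and 15. All 6 BM libraries lay above both FH libraries and above both BM 3W Yap-/- libraries. In the order of means (BM 3D, BM 3W, BM 1D, LBDXL 3W, FH Yap-/-, FH, BM 3W Yap-/-) every pair of neighbours overlapped except FH Yap-/- and FH.

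**Figure D1:**
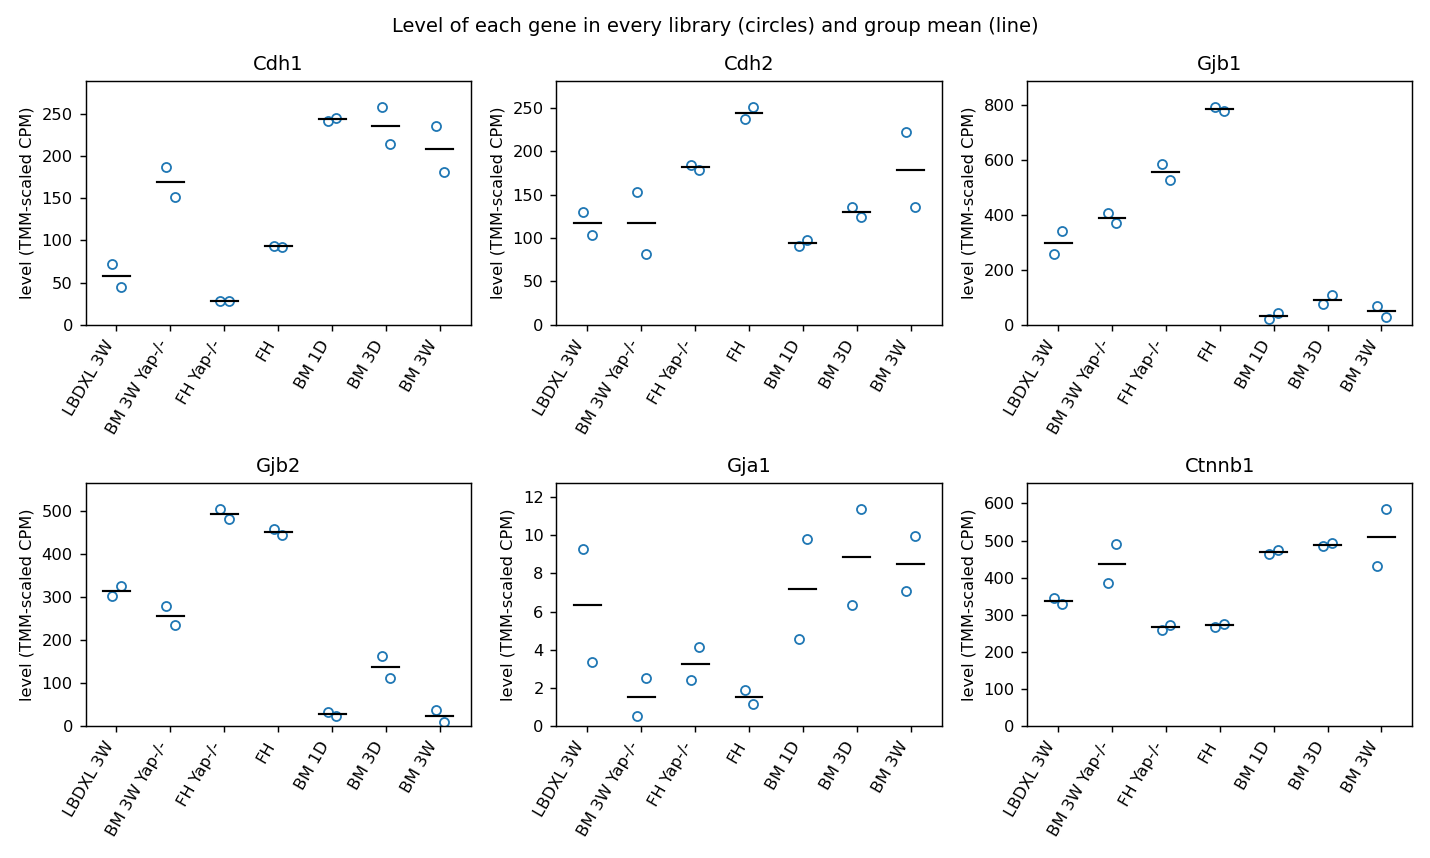
Level of each of the 6 genes (vertical axes, TMM-scaled CPM from 0) in the 7 groups, with a circle for each of the 2 libraries and a line at the group mean. Gjb1 and Gjb2 are above 230 CPM in the libraries of LBDXL 3W, BM 3W Yap-/-, FH Yap-/- and FH and at or below 163 CPM in every BM 1D, BM 3D and BM 3W library.

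The 3 connexin genes can be compared with each other by FPKM, which is per length of transcript. In FH Gjb1 stood at 285 and 282 FPKM, Gjb2 at 91.1 and 88.8, and Gja1 at 0.372 and 0.231. The summed FPKM of the connexin genes was 234 and 242 in LBDXL 3W, 294 and 311 FPKM in BM 3W Yap-/-, and 348 and 346 FPKM in FH Yap-/-. It was 378 and 372 in FH, 34.5 and 43.8 in BM 1D, 138 and 117 in BM 3D, and 91.3 and 46.0 in BM 3W. Gja1 made up 1.13 and 0.351% of this sum in LBDXL 3W, 0.0566 and 0.251% in BM 3W Yap-/-, and it was 0.157 and 0.269% in FH Yap-/-. Its share was 0.0984 and 0.0622% in FH, 4.52 and 8.06% in BM 1D, 1.83 and 3.45% in BM 3D, and 3.56 and 11.2% in BM 3W. The Gja1 share was thus higher in every BM 1D, BM 3D and BM 3W library than in any library of the other groups. Connexin genes other than these 3 held 16.6 and 5.23% of the sum in BM 1D, 1.37 and 1.86% in BM 3D, and 8.05 and 15.6% in BM 3W, against 0.354 and 0.290% in FH. Gjb2 held 37.0 and 44.5% in LBDXL 3W, 53.7 and 39.4% in BM 3D, and 19.1 and 14.9% in BM 3W, against 24.1 and 23.9% in FH.

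Cdh1, the E-cadherin gene, was higher in the BM series than in FH, where Gjb1 and Gjb2 were lower, and like Gjb1 it had lower means in LBDXL 3W and FH Yap-/- than in FH. Its level was 71.5 and 44.2 CPM in LBDXL 3W, 187 and 151 CPM in BM 3W Yap-/-, and 27.9 and 28.3 CPM in FH Yap-/-. It was 93.4 and 92.4 CPM in FH, 242 and 245 in BM 1D, 258 and 214 in BM 3D, and 235 and 181 in BM 3W. All 8 libraries from BM culture, with or without the Yap-/- label, lay above all fresh and LBDXL 3W libraries. The mean was highest in BM 1D, followed by BM 3D, BM 3W and BM 3W Yap-/-, which overlapped neighbour by neighbour, and then by FH, LBDXL 3W and FH Yap-/-, which did not. This order is that of CPM. On FPKM LBDXL 3W, at 10.8 and 7.53, overlapped FH, at 9.68 and 9.55.

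Cdh2, the N-cadherin gene, varied less between groups and more within them. It had 129.5 and 104 CPM in LBDXL 3W, 153 and 81.1 CPM in BM 3W Yap-/-, and 185 and 179 CPM in FH Yap-/-. In the BM series it had 237 and 251 CPM in FH, 91.3 and 97.3 in BM 1D, 136 and 124 in BM 3D, and 222 and 136 in BM 3W. On this scale FH lay above every other library. FPKM gives another picture, with 26.3 and 19.7 in BM 3W against 11.9 and 12.8 in FH. The middle of the order of CPM means (FH Yap-/-, BM 3W, BM 3D, BM 3W Yap-/-, LBDXL 3W) overlapped neighbour by neighbour, with FH above. BM 1D had the lowest mean, but BM 3W Yap-/- 2, at 81.1 CPM, lay below both BM 1D libraries.

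Within a library the ratio of both cadherins does not depend on the scaling between libraries. Of the sum of Cdh1 and Cdh2 FPKM, Cdh1 made up 53.8 and 51.5% in LBDXL 3W, 70.4 and 80.4% in BM 3W Yap-/-, and it was 23.1 and 24.6% in FH Yap-/-. Its share was 44.9 and 42.8% in FH, 83.8 and 83.9% in BM 1D, 79.1 and 77.7% in BM 3D, and 67.8 and 72.7% in BM 3W. Cdh1 therefore held the larger share in every cultured library and the smaller one in every fresh library. Where counts per kilobase of the longest transcript stood in for FPKM, the shares were lower in all 14 libraries, at 37.6 and 31.7% in LBDXL 3W, and Cdh2 then held the larger part there.

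**Figure D2:**
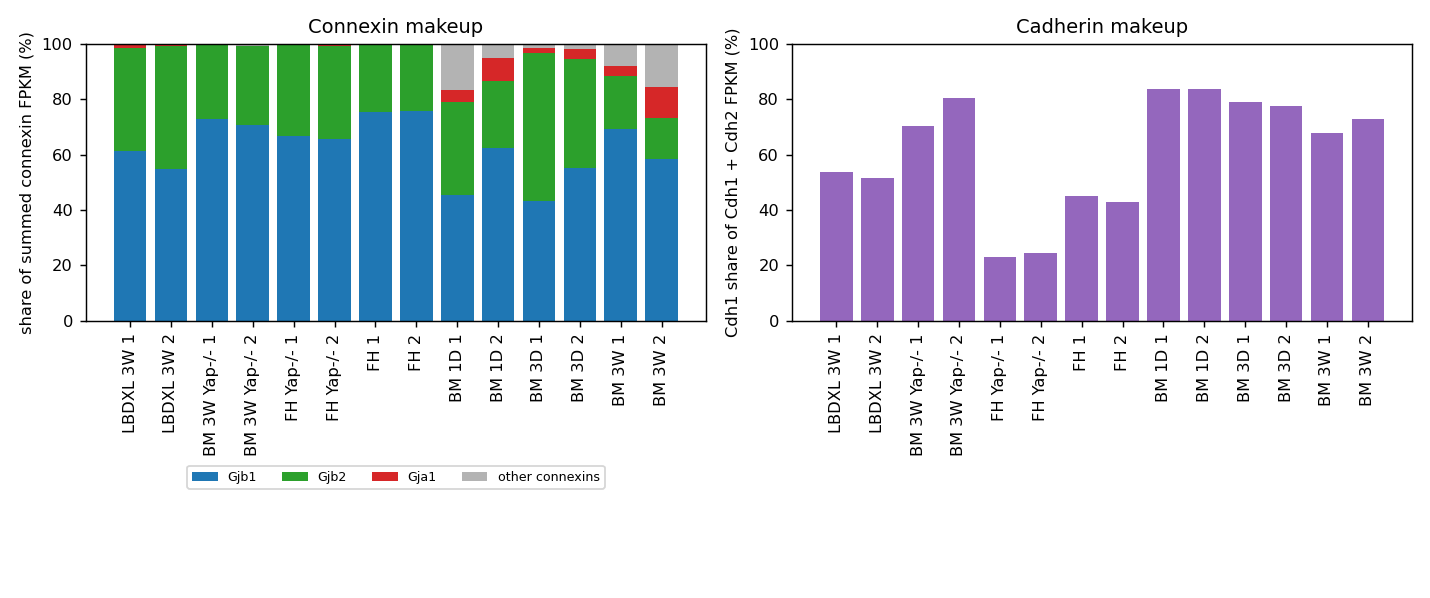
Share of each connexin gene in the summed connexin FPKM (left) and of Cdh1 in the sum of Cdh1 and Cdh2 FPKM (right), in percent, with 1 bar per library. Gja1 and the other connexins hold visible shares in the BM 1D, BM 3D and BM 3W libraries, and the Cdh1 share is lowest in FH Yap-/-, at 23.1 and 24.6%.

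Ctnnb1, the beta-catenin gene, was abundant in all libraries and had the smallest ratio of highest to lowest CPM of the 6. Its level was 345 and 329.6 CPM in LBDXL 3W, 385 and 490.2 CPM in BM 3W Yap-/-, and 261 and 273 CPM in FH Yap-/-. It was 268 and 276 CPM in FH, 465 and 475 in BM 1D, 485 and 493 in BM 3D, and 432 and 585 in BM 3W. All BM libraries lay above all LBDXL 3W libraries, which lay above all fresh ones, and FH Yap-/- and FH overlapped.

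After 1 day of BM culture both hepatocyte connexins were already far lower than in FH. Gjb1 fell to 33.2 ± 14.6 CPM in BM 1D, against 786 ± 10.6 in FH (mean ± SD, n = 2 each), 23.6-fold lower. Gjb2 fell to 29.0 ± 5.34 CPM, against 451 ± 9.29 in FH, 15.5-fold lower, while Gja1 rose 4.62-fold. Cdh1 rose 2.62-fold and Ctnnb1 1.73-fold. Cdh2 fell 2.59-fold by TMM. By the quasi-likelihood test of edgeR across 14100 genes, all 6 members were called at 1 day, where 43.8% of all genes tested were called. The log2 fold changes were -4.56 ± 0.48 for Gjb1 (edgeR adjusted p = 5.2e-05), -3.96 ± 0.48 for Gjb2 (0.000117), 1.39 ± 0.25 for Cdh1 (0.00141) and -1.37 ± 0.31 for Cdh2 (0.00486), each ± its standard error (SE). Ctnnb1 stood at 0.79 ± 0.24 (edgeR adjusted p = 0.0202) and Gja1 at 2.21 ± 0.75 (0.0346). Both of these calls ended when either FH library was left out, with adjusted p-values of 0.119 and 0.103 for Ctnnb1 and 0.0933 and 0.179 for Gja1, that of Ctnnb1 also without either BM 1D library (0.0613 and 0.0630), and that of Gja1 without BM 1D 2 (0.173). By total counts, where 7064 genes were higher and 1351 lower against 3328 and 2842 by TMM, the Cdh2 change was -0.45 beside a median gene of 1.08 and did not pass (0.219). The sizes of the other changes moved too, to -3.64 for Gjb1, -3.04 for Gjb2, 2.31 for Cdh1, 1.71 for Ctnnb1 and 3.13 for Gja1.

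At 3 days and 3 weeks Gjb1 was lower and Cdh1, Ctnnb1 and Gja1 were higher than in FH, as at 1 day, while the Gjb2 difference was smaller at 3 days. Gjb1 was 8.60-fold lower in BM 3D and 15.8-fold lower in BM 3W. Gjb2 was 3.28-fold lower in BM 3D and 18.6-fold lower in BM 3W. Cdh1 was 2.54-fold and 2.24-fold higher, Ctnnb1 1.80-fold and 1.87-fold higher, and Gja1 5.71-fold and 5.48-fold higher. All 6 members were called in BM 3D, where 40.5% of all genes were called, and 5 in BM 3W, where 59.1% were. In BM 3D the log2 fold changes were -3.10 ± 0.44 for Gjb1 (edgeR adjusted p = 0.00042), -1.72 ± 0.44 for Gjb2 (0.00967), 1.34 ± 0.25 for Cdh1 (0.00194), 0.85 ± 0.24 for Ctnnb1 (0.0156) and 2.51 ± 0.76 for Gja1 (0.0215). In BM 3W they were -3.98 ± 0.46 for Gjb1 (4.87e-05), -4.21 ± 0.49 for Gjb2 (4.75e-05), 1.16 ± 0.25 for Cdh1 (0.00248), 0.90 ± 0.24 for Ctnnb1 (0.00744) and 2.45 ± 0.75 for Gja1 (0.0162) in the same edgeR test. Cdh2 was at -0.91 ± 0.31 by TMM in BM 3D (edgeR adjusted p = 0.0363) but at 0.047 by total counts, and in BM 3W it was at -0.45 ± 0.31 by TMM (0.229) but at 0.83 by total counts (0.0275) and 0.84 on log2(FPKM + 1) (limma, 0.00990), beside median genes of 1.46 and 0.94. Total counts gave 7575 genes higher and 1038 lower in BM 3D against 3175 and 2530 by TMM, and 9282 and 1364 in BM 3W against 4653 and 3675. The Gjb2 call in BM 3D was lost by total counts (-0.75, 0.133), on log2(FPKM + 1) (-0.61, 0.143) and without BM 3D 2 (-1.47, 0.0685). Leaving out BM 3D 2 or an FH library also ended the Gja1 call in BM 3D (edgeR adjusted p = 0.0901, and 0.0727 and 0.138 for the FH libraries), that of Ctnnb1 ended without FH 1 or FH 2 (0.104 and 0.0958), and that of Cdh2 ended without any single library of BM 3D, FH Yap-/- or FH (0.0583 to 0.138). In BM 3W the Gja1 call ended without BM 3W 2, FH 1 or FH 2 (0.0647, 0.0524 and 0.1002) and that of Ctnnb1 without BM 3W 2 or FH 1 (0.0528 and 0.0605). The 3 comparisons share the FH libraries.

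**Figure D3:**
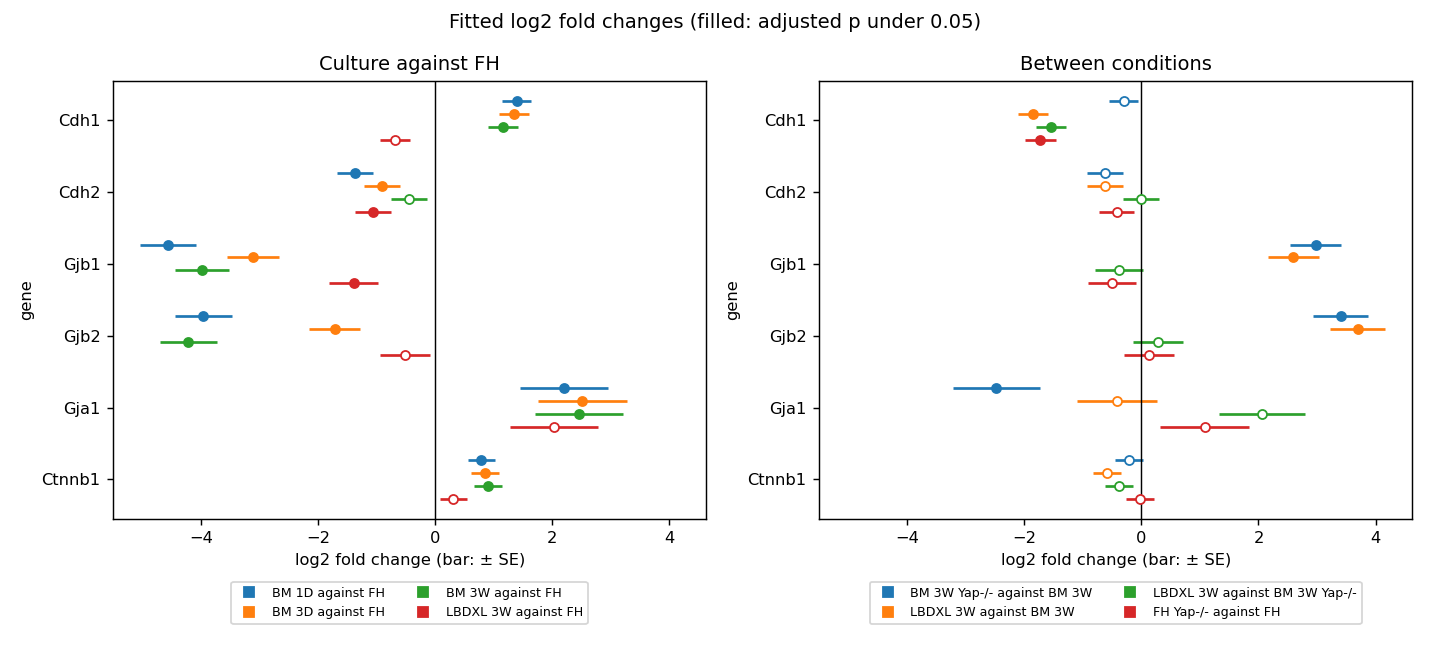
Fitted log2 fold change of each gene (horizontal axis, bars ± SE), for culture against FH (left) and between conditions (right), with filled circles at an edgeR adjusted p under 0.05. Gjb1 and Gjb2 lie far left of 0 in the BM groups against FH and right of 0 where LBDXL 3W and BM 3W Yap-/- are set against BM 3W.

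**Figure D4:**
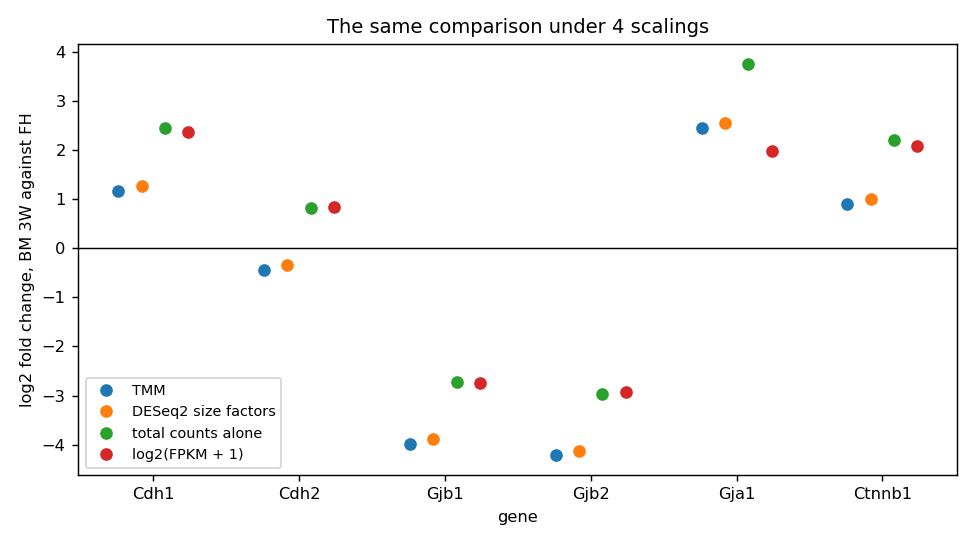
Log2 fold change of each gene in BM 3W against FH (vertical axis) under TMM, DESeq2 size factors, total counts alone and log2(FPKM + 1). Cdh2 changes sign, from -0.45 by TMM to 0.83 by total counts, while the other 5 keep their sign.

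Markers of other cell types moved beside these genes, most of all at 3 weeks. Against FH, 59.1% of all genes tested were called at 3 weeks, 43.8% at 1 day and 40.5% at 3 days. Of 9 stellate cell and fibroblast markers all 9 rose in BM 3W against FH, and their summed level was 9058 and 10846 CPM in BM 3W, against 109.7 and 89.7 in FH, where Acta2 in FH 1 and Des in FH 2 were at 0. Of 7 cholangiocyte markers tested 6 rose and 1 fell, with sums of 4492 and 5194 CPM in BM 3W against 131 and 126 in FH, where Cftr was at 0 in both libraries and Krt7 and Krt19 in FH 2. Of 8 Kupffer cell and macrophage markers 6 rose and 2 fell, with 939 and 772 CPM in BM 3W against 101 and 73.4 in FH. Of 8 endothelial markers 6 fell, to 11.5 and 8.77 CPM in BM 3W against 110.2 and 87.9 in FH. At 1 day, where Gja1 had also risen, the stellate and fibroblast sum was 42.8 and 109.5 CPM, and none of those 9 markers rose while 2 fell, but 4 of 7 cholangiocyte markers rose (median log2 fold change 2.48) and 1 fell, with sums of 249 and 154 CPM. At 3 days 5 of 9 stellate and fibroblast markers and 5 of 7 cholangiocyte markers rose, with sums of 89.6 and 268 CPM and of 149.6 and 636 CPM. Of 8 hepatocyte markers 6 fell at 1 day, 6 at 3 days and all 8 at 3 weeks, beside Gjb1 and Gjb2. Their median log2 fold change at 3 weeks was -4.34. The part of these cells in the levels of the members over the BM series was not tested.

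**Figure D5:**
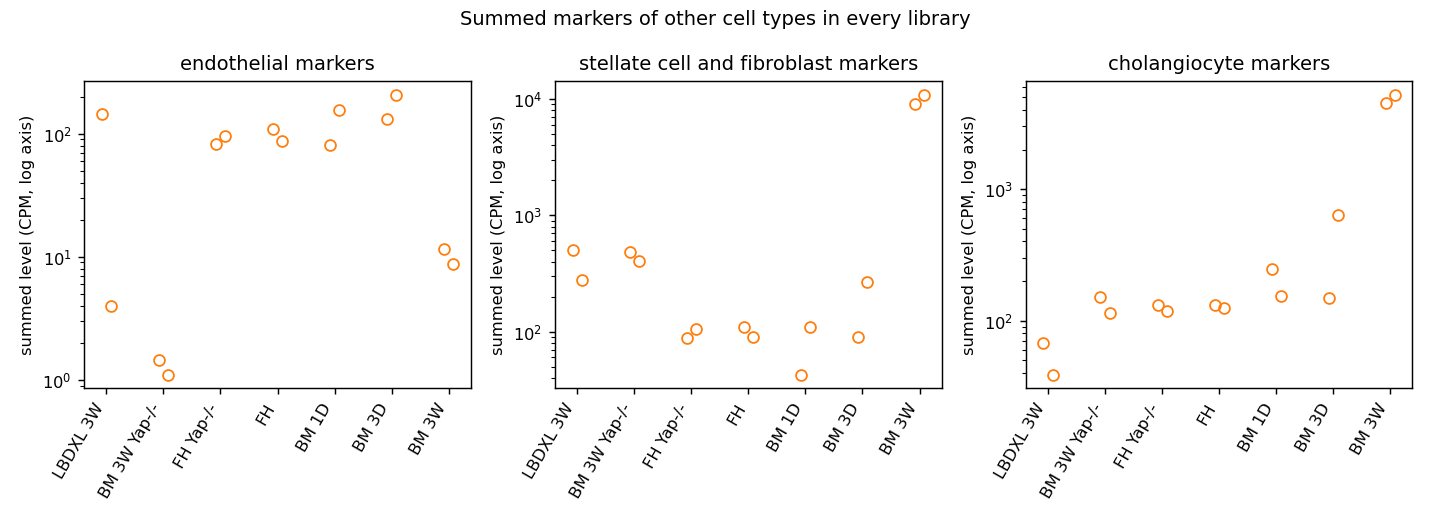
Summed level of endothelial, stellate cell and fibroblast, and cholangiocyte markers (vertical log axes, TMM-scaled CPM) in every library of the 7 groups. The BM 3W libraries stand apart in the stellate cell and cholangiocyte sums, at 9058 and 10846 and at 4492 and 5194 CPM, and the LBDXL 3W libraries differ from each other in the endothelial sum, at 143.5 and 3.99 CPM.

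Other genes of cell contacts were tested beside the 6. Of all genes tested, 43.8% were called in BM 1D against FH, 40.5% in BM 3D and 59.1% in BM 3W. The counts of each list that follow stand beside these shares. In any of these lists a gene can pass the filter through BM 3W alone, so list counts and medians describe and support nothing. Of 12 other cadherin genes 7 passed the filter on low counts, and of these 2 rose and none fell in BM 1D, 3 rose and none fell in BM 3D, and 6 rose and none fell in BM 3W. Their median log2 fold changes of 1.75, 2.70 and 4.71 stood beside a median of 0.17 over all genes in each comparison. Cdh6, known as kidney cadherin, stood at 113 and 136 CPM in BM 3W, against 0 and 0.237 in FH. Cdh17, the intestinal cadherin, stood at 149 and 89.8 CPM in BM 3W, against 0.159 and 0 in FH, and was already at 4.78 and 6.61 in BM 1D. Cdh3, the P-cadherin gene, stood at 59.2 and 32.6 CPM in BM 3W, against 0 and 0.0791 in FH. The edgeR adjusted p-values of these 3 in BM 3W were 1.15e-05, 3.72e-05 and 0.000123. A gene of such a list can pass the filter through BM 3W alone, so the counts describe and support nothing.

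Of 20 other connexin and pannexin genes 7 passed the filter. In BM 1D 3 rose and none fell, in BM 3D 3 rose and 1 fell, and in BM 3W 5 rose and 2 fell, with medians of 3.63, 4.45 and 6.76, or of 3.15, 1.60 and 3.39 with genes at 0 in FH placed at 3 counts per library. Here too a gene can pass the filter through BM 3W alone, so the counts and medians describe and support nothing. Panx1, which forms large membrane channels rather than gap junctions, stood at 12.3 and 14.8 CPM in BM 3W, against 0.159 and 0.0791 in FH (edgeR adjusted p = 0.000491).

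Of 16 adherens junction partners tested 6 rose and 2 fell in BM 1D, 6 rose and 1 fell in BM 3D, and 7 rose and 2 fell in BM 3W, with medians of 0.48, 0.49 and 0.49. These counts lie near the shares of all genes called, 43.8% in BM 1D, 40.5% in BM 3D and 59.1% in BM 3W. Vcl, the gene of vinculin, which joins strained junctions to actin, stood at 427 and 255 CPM in BM 1D, against 69.3 and 65.8 in FH, a log2 fold change of 2.33 ± 0.32 (edgeR adjusted p = 0.000247). Jup, the gene of plakoglobin, a close relative of beta-catenin, rose by 1.38 ± 0.22 (0.000690), and Adam10, whose protease cleaves E- and N-cadherin, by 1.16 ± 0.24 (0.00279). Nectin3, the gene of a further adhesion protein, fell by 1.26 ± 0.21 in BM 1D (0.000910), a call that total counts ended (-0.34, 0.170).

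Of 11 desmosome genes tested 4 rose and 1 fell in BM 1D, 3 rose and 1 fell in BM 3D, and 3 rose and 5 fell in BM 3W, with medians of 0.02, 0.16 and -0.38. Dsp, the gene of desmoplakin, which anchors keratin at desmosomes, stood at 585 and 795 CPM in BM 1D, against 159.7 and 153 in FH (log2 2.14 ± 0.43, edgeR adjusted p = 0.00228). Dsg1c, a desmoglein gene, stood at 0.0903 and 0.104 CPM in BM 1D, against 36.5 and 37.0 in FH (log2 -8.48 ± 0.95, 7.67e-05). Ppl, the gene of periplakin, was at 137 and 161 CPM in BM 1D, against 27.4 and 28.9 in FH (log2 2.40 ± 0.30, 0.000145).

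Of 17 tested genes for the turnover and the nuclear partners of beta-catenin 4 rose and 1 fell in BM 1D, 5 rose and 2 fell in BM 3D, and 6 rose and 1 fell in BM 3W, with medians of 0.07, -0.03 and 0.39. Axin2, a scaffold of the destruction complex and a common target of Wnt signalling, fell to 0.181 and 0.312 CPM in BM 1D, against 7.71 and 6.81 in FH (log2 -4.86 ± 0.75, edgeR adjusted p = 0.000482). In the BM series it stood at 7.71 and 6.81 CPM in FH, 0.181 and 0.312 in BM 1D, 0.203 and 0.246 in BM 3D, and 9.53 and 18.8 in BM 3W, and was thus higher at 3 weeks than at 3 days (log2 5.95 ± 0.76, 0.000424) while Ctnnb1 itself was not called between these times.

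Between the times of BM culture Gjb2 was the only one of the 6 that was called. It rose to 137 ± 35.8 CPM in BM 3D, against 29.0 ± 5.34 in BM 1D, a log2 fold change of 2.24 ± 0.45 (edgeR adjusted p = 0.0193, n = 2 each), where 5.26% of all genes were called. It fell to 24.3 ± 18.3 CPM in BM 3W, against 137 ± 35.8 in BM 3D, a log2 fold change of -2.50 ± 0.45 (0.00303), where 24.4% of all genes were called. Gjb1 stood at 1.46 ± 0.42 in BM 3D against BM 1D (0.0716) and at -0.88 ± 0.41 in BM 3W against BM 3D (0.146). The intervals of Cdh1 ran from -0.59 to 0.50 for BM 3D against BM 1D and from -0.73 to 0.37 for BM 3W against BM 3D, those of Ctnnb1 from -0.46 to 0.58 and from -0.46 to 0.58, and those of Gja1 from -1.20 to 1.81 and from -1.56 to 1.44 (log2, 95%). The Gjb2 call in BM 3D against BM 1D ended without BM 1D 1 (0.0900), BM 1D 2 (0.0832) or BM 3D 1 (0.0709), and total counts turned the split of calls in BM 3W against BM 3D from 1906 higher and 1541 lower to 2540 and 704.

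After 3 weeks in LBDXL, both hepatocyte connexins were higher and Cdh1 was lower than after 3 weeks in BM. Against BM 3W, Gjb1 was 6.02-fold higher and Gjb2 higher still, while Cdh1 was 3.60-fold lower. Gjb1 rose to 299 ± 58.8 CPM in LBDXL 3W, against 49.7 ± 29.1 in BM 3W, and Gjb2 to 315 ± 15.2 CPM, against 24.3 ± 18.3 in BM 3W (SD, n = 2 each). Cdh1 fell to 57.8 ± 19.3 CPM in LBDXL 3W, against 208 ± 37.8 in BM 3W. These 3 of the 6 members were called, where 44.8% of all genes were called, with log2 fold changes of 2.59 ± 0.44 (edgeR adjusted p = 0.00097), 3.69 ± 0.47 (0.000216) and -1.85 ± 0.26 (0.000339). Ctnnb1 stood at -0.59 ± 0.24 (0.0627), Cdh2 at -0.62 ± 0.31 (0.126) and Gja1 at -0.42 ± 0.68 (0.649). Total counts called Ctnnb1 and Cdh2 too, at -1.43 and -1.41 beside a median gene of -0.84, and turned the split of calls from 2980 higher and 3343 lower to 1135 and 6650.

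Against FH, 2 of the 6 members were called in LBDXL 3W, where 21.3% of all genes were called. Cdh2 fell by 1.06 ± 0.31 on the log2 scale (edgeR adjusted p = 0.0321) and Gjb1 by 1.39 ± 0.42 (0.0362), 2.63-fold. Gjb2 stood at -0.52 ± 0.43 (0.425), Cdh1 at -0.68 ± 0.25 (0.0780), Ctnnb1 at 0.31 ± 0.24 (0.387) and Gja1 at 2.03 ± 0.75 (0.0790), and the interval of Gjb2 ran from -1.46 to 0.42. Both calls were lost by total counts (-0.58, 0.156 for Cdh2 and -0.93, 0.0781 for Gjb1) and without any single library of LBDXL 3W, FH Yap-/- or FH (0.0546 to 0.153 for Cdh2 and 0.0575 to 0.168 for Gjb1), and that of Gjb1 also without BM 3W Yap-/- 2 (0.0525). Calls were also gained, for Cdh1 with DESeq2 (-0.73, adjusted p = 0.0265), with the replicate block (edgeR, 0.0414) and without LBDXL 3W 1 (-1.07, 0.0262). Gja1 was called by total counts (2.52, edgeR adjusted p = 0.0280), with DESeq2 (1.99, 0.0358), on log2(FPKM + 0.1) (limma, 0.0341) and without LBDXL 3W 2 (2.58, edgeR adjusted p = 0.0370) or BM 3W Yap-/- 2 (0.0491). Ctnnb1 was called by total counts (0.79, edgeR adjusted p = 0.0453) and on log2(FPKM + 0.1) (limma, 0.0416). Gjb2 turned to 0.10 on log2(FPKM + 1), where Cdh1 stood at -0.083 (limma adjusted p = 0.764). By total counts Cdh1 stood at -0.20 (edgeR adjusted p = 0.592). Of 9 stellate cell and fibroblast markers 6 rose beside these genes, and 6 of 8 Kupffer cell and macrophage markers fell, and their part was not tested. Total counts gave 3593 genes higher and 822 lower, against 1656 and 1353 by TMM.

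The 2 LBDXL 3W libraries differed in their endothelial markers, 8 genes that summed to 143.5 CPM in LBDXL 3W 1 and 3.99 in LBDXL 3W 2, where Tek and Clec4g were at 0. Gja1 was higher in the same library, at 9.30 CPM in LBDXL 3W 1 and 3.38 in LBDXL 3W 2, and Cdh5, the cadherin of endothelial cells, stood at 37.9 and 0.725. Cdh5 rose in LBDXL 3W against BM 3W (log2 3.55 ± 1.10, edgeR adjusted p = 0.0229) but stood at -1.17 without LBDXL 3W 1 (0.0668). Without that library the Gjb1, Gjb2 and Cdh1 differences from BM 3W were called as before, while the interval of Gja1 against BM 3W ran from -1.93 to 1.09 with it, and its value turned to 0.13 without LBDXL 3W 2. The part of endothelial cells in Gja1 was not tested.

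Of the 7 other cadherins tested 1 rose and 5 fell in LBDXL 3W against BM 3W (median -2.74, beside -0.02 over all genes), and 1 rose and none fell against FH (median 2.11, beside 0.09), Cdh6. Its call against FH ended in 11 of the 14 fits that left out a single library (edgeR adjusted p up to 0.336), with DESeq2 size factors (0.0503), with the replicate block (0.0509) and in the limma fits. Of the 7 other connexins and pannexins none rose and 2 fell against BM 3W (median -2.35). Genes of these lists can pass the filter through BM 3W alone, so their counts and medians against BM 3W describe and support nothing. The share of all genes called was 44.8% against BM 3W and 21.3% against FH. Counts and medians of the adherens junction, desmosome and beta-catenin lists below have the same limit. In those lists Ctnna2, Ctnnd2, Nectin4 and Pkp1 had no counts in LBDXL 3W. Of 16 adherens junction partners 1 rose and 8 fell against BM 3W (median -0.68), and Vcl stood at 119.8 and 84.9 CPM in LBDXL 3W, against 318 and 281 in BM 3W (log2 -1.55 ± 0.31, edgeR adjusted p = 0.00273). Nectin1 was the partner that rose, to 78.9 and 74.2 CPM in LBDXL 3W, against 20.8 and 17.5 in BM 3W (0.000118). Of 11 desmosome genes 3 rose and 1 fell against BM 3W (median 0.03), and of 17 beta-catenin partners none rose and 5 fell (median -0.37), with Axin2 at 0.846 and 0.302 CPM in LBDXL 3W, against 9.53 and 18.8 in BM 3W (log2 -4.59 ± 0.70, 0.000549). Stellate cell and fibroblast markers were lower too, 8 of 9 called, with sums of 503 and 278 CPM in LBDXL 3W against 9058 and 10846 in BM 3W. Of 7 cholangiocyte markers 6 fell, beside Cdh1, with sums of 67.2 and 39.0 CPM against 4492 and 5194 in BM 3W, and 6 of 8 Kupffer cell and macrophage markers fell. Hepatocyte markers rose beside Gjb1 and Gjb2, 7 of 8, with a median log2 fold change of 2.93. The part of these cells in the differences was not tested.

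In BM culture for 3 weeks, the libraries labelled Yap-/- had far more Gjb1 and Gjb2 RNA and less Gja1 than those without the label. Gjb1 rose to 390.5 ± 25.7 CPM in BM 3W Yap-/-, against 49.7 ± 29.1 in BM 3W, 7.86-fold higher. Gjb2 rose to 257 ± 30.0 CPM in BM 3W Yap-/-, against 24.3 ± 18.3 in BM 3W, 10.6-fold higher. Gja1 fell to 1.52 ± 1.40 CPM in BM 3W Yap-/-, against 8.50 ± 2.03 in BM 3W (SD, n = 2 each). These 3 of the 6 members were called, where 31.6% of all genes were called, with log2 fold changes of 2.97 ± 0.44 (edgeR adjusted p = 0.00108), 3.40 ± 0.47 (0.000768) and -2.48 ± 0.74 (0.0270). Cdh1 stood at -0.30 ± 0.25 (0.378), Cdh2 at -0.61 ± 0.31 (0.147) and Ctnnb1 at -0.22 ± 0.24 (0.507), and by total counts they were called at -0.93, -1.24 and -0.87 beside a median gene of -0.66. The Gja1 call ended without BM 3W 1 (0.0523), BM 3W 2 (0.103) or BM 3W Yap-/- 1 (0.131), Ctnnb1 turned to 0.021 without BM 3W 2, and total counts gave 798 genes higher and 5053 lower, against 2117 and 2342 by TMM.

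Hepatocyte markers rose beside the connexins, 6 of 8 with 1 that fell, to sums of 113184 and 97377 CPM in BM 3W Yap-/- against 32437 and 3364 in BM 3W. All 9 stellate cell and fibroblast markers fell beside Gja1, to 489 and 408 CPM in BM 3W Yap-/- against 9058 and 10846 in BM 3W. Of 7 cholangiocyte markers 3 fell and none rose, while Cdh1 was not called. The cholangiocyte sums were 150.0 and 114 CPM in BM 3W Yap-/- against 4492 and 5194 in BM 3W. Of 8 Kupffer cell and macrophage markers 5 fell and 1 rose, and of 8 endothelial markers 1 fell and none rose. The part of these cells in the 3 connexin differences and in Cdh1 was not tested. Of the 7 other cadherins none rose and 5 fell (median -4.20, beside -0.03 over all genes), with Cdh6 at 7.87 and 6.44 CPM in BM 3W Yap-/- against 113 and 136 in BM 3W, and Cdh17 at 3.55 and 3.07 against 149 and 89.8 (edgeR adjusted p = 0.000898 and 0.00106). Of the other connexins and pannexins none rose and 2 fell (median -1.22), and Panx1, which was not called, stood at 14.2 and 19.4 CPM in BM 3W Yap-/- against 12.3 and 14.8 in BM 3W. Genes of these lists can pass the filter through BM 3W alone, so their counts and medians against BM 3W describe and support nothing. The share of all genes called here was 31.6%. Counts and medians of the adherens junction, desmosome and beta-catenin lists that follow have the same limit. Of 16 adherens junction partners 1 rose and 5 fell (median -0.46), the 1 being Nectin1 at 1.86 ± 0.23 (0.000443). Of 11 desmosome genes 2 rose and 1 fell (median 0.09), and of 17 beta-catenin partners none rose and 4 fell (median -0.57). Axin2 stood at 0.729 and 0.101 CPM in BM 3W Yap-/-, against 9.53 and 18.8 in BM 3W (log2 -5.07 ± 0.72, 0.000890), and Tcf7, a nuclear partner of beta-catenin, at 0.583 and 1.21 CPM, against 5.32 and 7.19 (log2 -2.80 ± 0.50, 0.00277).

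In freshly isolated cells Cdh1 was the 1 member of 6 called between libraries with and without the Yap-/- label. Cdh1 fell to 28.1 ± 0.307 CPM in FH Yap-/-, against 92.9 ± 0.656 in FH (SD, n = 2 each), 3.31-fold lower, a log2 fold change of -1.72 ± 0.26 (edgeR adjusted p = 0.0145). This 1 call of 6 stands where 0.943% of all genes, 133 of 14100, were called. Gjb1 stood at -0.49 ± 0.41 (0.892), Gjb2 at 0.13 ± 0.43 (1), Gja1 at 1.08 ± 0.75 (0.845), Cdh2 at -0.42 ± 0.31 (0.857) and Ctnnb1 at -0.03 ± 0.24 (1). None of the tested genes of the 5 lists of contact genes was called, and none of the hepatocyte, cholangiocyte, stellate, endothelial or Kupffer cell markers. The Cdh1 call ended when any single library of FH Yap-/- or FH was left out (-1.73 to -1.71, adjusted p = 0.134 to 0.187). When the model held these 4 libraries alone, it called 5 of the 6 members and 4251 genes. The main model fits all 7 groups together. Scatter between the libraries of a group, as chi-square per degree of freedom, was 4.04 in FH Yap-/- and 5.49 in FH. In the cultures it ran from 68.0 in BM 3W Yap-/- to 235 in LBDXL 3W. A gene not called in the main model can thus still differ between these fresh libraries.

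Among cells labelled Yap-/-, 3 weeks of BM culture went with a higher Cdh1 and Ctnnb1. Cdh1 rose to 169 ± 25.1 CPM in BM 3W Yap-/-, against 28.1 ± 0.307 in FH Yap-/- (SD, n = 2 each), a log2 fold change of 2.59 ± 0.27 (edgeR adjusted p = 9.16e-05). Ctnnb1 stood at 438 ± 74.2 CPM, against 267 ± 9.06 in FH Yap-/- (0.71 ± 0.24, 0.0366). These 2 of the 6 were called, where 36.3% of all genes were called. Gjb1 was at -0.51 ± 0.41 (0.352) and Gjb2 at -0.94 ± 0.43 (0.109), with intervals from -1.42 to 0.39 and from -1.89 to 0.0050. The Ctnnb1 call ended without BM 3W Yap-/- 2, either FH Yap-/- library or either FH library (0.0688 to 0.196), and total counts turned the split from 2793 higher and 2327 lower to 5193 and 1278 and put Gjb1 at 0.060. Cdh17 and Panx1, both at 0 counts in FH Yap-/-, were at least 14.8-fold and 75.2-fold higher in BM 3W Yap-/-. In the same comparison 7 of 9 stellate cell and fibroblast markers rose, with sums of 489 and 408 CPM in BM 3W Yap-/- against 88.2 and 105 in FH Yap-/-. Of 7 cholangiocyte markers 3 rose and 1 fell, with sums of 150.0 and 114 CPM against 131 and 119 in FH Yap-/-, and all 8 endothelial markers fell. The part of these cells in Cdh1 and Ctnnb1 was not tested.

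The test of whether Yap-/- changed the effect of 3 weeks in BM called 4 of the 6, where 16.9% of all genes were called. The difference was 3.47 ± 0.60 for Gjb1 (edgeR adjusted p = 0.00494) and 3.27 ± 0.62 for Gjb2 (0.00694). Both had fallen in BM 3W against FH and were not called in BM 3W Yap-/- against FH Yap-/-. It was -3.56 ± 1.05 for Gja1 (0.0415) and 1.43 ± 0.36 for Cdh1 (0.0215), which rose 6.01-fold in BM 3W Yap-/- against FH Yap-/- and 2.24-fold in BM 3W against FH. Cdh2 stood at -0.19 ± 0.43 (0.829) and Ctnnb1 at -0.19 ± 0.33 (0.756). Yap1 itself was called in the same test, at -1.71 ± 0.27 (0.00314). Its mean was 24.8 CPM in FH Yap-/- and 7.20 in BM 3W Yap-/-, and the part of these unequal levels was not tested. The Cdh1 difference was lost by total counts (0.72, 0.203) and on log2(FPKM + 1) (0.41, limma 0.252), and without BM 3W 2, BM 3W Yap-/- 1 or any library of FH Yap-/- or FH (0.0538 to 0.0922). That of Gja1 ended without BM 3W 1, BM 3W 2, BM 3W Yap-/- 1 or any library of FH Yap-/- or FH (0.0633 to 0.143), and total counts gave 463 genes higher and 2780 lower, against 1133 and 1247 by TMM.

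Between LBDXL 3W and BM 3W Yap-/-, Cdh1 was the 1 member of 6 that was called. Cdh1 fell to 57.8 ± 19.3 CPM in LBDXL 3W, against 169 ± 25.1 in BM 3W Yap-/- (SD, n = 2 each), a log2 fold change of -1.55 ± 0.26 (edgeR adjusted p = 0.00705), where 6.94% of all genes were called. Gjb1 stood at -0.38 ± 0.41 (0.620) with an interval from -1.29 to 0.52, and Gjb2 at 0.29 ± 0.43 (0.733) with an interval from -0.65 to 1.23. Gja1 stood at 2.06 ± 0.73 (0.116), Ctnnb1 at -0.38 ± 0.24 (0.371) and Cdh2 had an interval from -0.68 to 0.67 (1). A model of these 4 libraries alone ended the Cdh1 call (-1.53, 0.0968), and total counts gave 211 genes higher and 736 lower, against 368 and 610 by TMM. Beside Cdh1, 3 of 7 cholangiocyte markers and 7 of 8 Kupffer cell and macrophage markers fell and 5 of 8 endothelial markers rose, and their part was not tested.

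The genes whose levels ran most like each member over the 14 libraries were found by Pearson's r of log2 CPM among about 10170 genes whose mean reached 10 CPM in at least 1 group. For Gjb1 they were Os9, Ttc38 and Cpn2 (r = 0.99, 0.98 and 0.98), and for Gjb2 Mttp, Wipf3 and Slc25a47 (0.98, 0.98 and 0.97). Mttp encodes the lipid transfer protein needed to assemble very low density lipoprotein, and Cpn2 a subunit of plasma carboxypeptidase N, both made in liver. For Cdh1 they were Naa40, Apobec1 and Pip5k1a (0.93, 0.92 and 0.92), for Cdh2 Taok3, Zfp595 and Cped1 (0.91, 0.89 and 0.89), for Gja1 Mest, Angpt2 and Trp53i11 (0.85, 0.84 and 0.84), and for Ctnnb1 Limk2, Kctd10 and Ppp1r14b (0.98, 0.97 and 0.97). Among the members themselves r was 0.94 between Gjb1 and Gjb2, -0.70 and -0.69 of these with Cdh1, and 0.82 between Cdh1 and Ctnnb1. These values describe 14 libraries that share groups and scaling factors.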

How the data were processed

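The authors deposited 1 table of raw counts per gene and 1 of FPKM values, each with 21878 genes in 14 libraries of 7 groups of 2. The submitters' processing notes name Trimmomatic, HISAT2, Cufflinks, HTSeq and DESeq with GRCm38.p6. Versions, settings and the strand used in counting are not given in the sources used here. Per the labels, libraries were paired-end from a stranded mRNA kit. 27 altered symbols were restored, and 4326 genes were at 0 in all libraries.

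The counts went into edgeR 4.0.16 under R 4.3.3 (TMM, its default low-count filter, quasi-likelihood F-test, Benjamini-Hochberg adjustment over 14100 genes) in 1 model of all 7 groups, with calls at an adjusted p under 0.05 and SE taken as the absolute log2 fold change over the square root of F, and 95% intervals from that SE and the t quantile. Alternatives were DESeq2 1.42.0, its size factors, total counts alone, no filter, a replicate block, only the groups compared, each library left out, and limma 3.58.1 on log2(FPKM + 1) or log2(FPKM + 0.1) at a mean of at least 0.5 FPKM or without a filter. Each tool was checked on simulated data. Fold bounds use 3 counts per library for a group at 0. A list gene was named where it passed and was among the 4 smallest p-values of its list, and not every gene this rule names is reported here. Some further values of these genes in other comparisons, and those of Axin2 over the BM times, were added after values were seen. The members and lists were chosen with earlier results of these data known. Figures were drawn with matplotlib 3.10.9.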

Additional observations from a re-analysis of the deposited data

Results flagged for a closer look

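For 4 of the 6 genes the effect of 3 weeks in BM culture differed between Yap-/- and wild-type cells in an edgeR test of the difference itself, here given as the log2 change in Yap-/- minus that in wild type. The difference was 3.47 for Gjb1 (edgeR adjusted p = 0.00494) and 3.27 for Gjb2 (0.00694). It was 1.43 for Cdh1 (0.0215) and -3.56 for Gja1 (0.0415). Each rests on 2 libraries in each of 4 groups. Before culture Cdh1 was lower in FH Yap-/- than in FH (means of 28.1 against 92.9 CPM). After culture Cdh1 was not called in BM 3W Yap-/- against BM 3W (means of 169 against 208 CPM). The Gjb1 and Gjb2 differences were called under every alternative run, with 2.97 to 4.24 and 2.66 to 4.37 when single libraries were left out, while the Cdh1 and Gja1 differences were lost in several.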

How the results depend on the processing

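With 2 libraries a group, the number of genes called depended on single libraries. When each was left out in turn it ran from 3842 to 6517 in BM 1D against FH, 3435 to 6056 in BM 3D against FH, 5932 to 8612 in BM 3W against FH, 1178 to 3171 in LBDXL 3W against FH, 178 to 1210 in BM 3D against BM 1D, 1664 to 4067 in BM 3W against BM 3D, 3993 to 6549 in LBDXL 3W against BM 3W and 1938 to 5165 in BM 3W Yap-/- against BM 3W. It ran from 13 to 231 in FH Yap-/- against FH, 2857 to 5524 in BM 3W Yap-/- against FH Yap-/-, 209 to 1823 in LBDXL 3W against BM 3W Yap-/- and 800 to 3027 in the test of the difference between the Yap-/- and wild-type effects. Members called ran, in the same order, from 4 to 6, 3 to 6, 3 to 5, 0 to 2, 0 to 2, 1 to 2, 3 to 4, 2 to 3, 0 to 1, 1 to 3, 1 to 1 and 2 to 4. Total counts called 8613 genes in BM 3D against FH, 5 members in LBDXL 3W against BM 3W and 6 in BM 3W Yap-/- against BM 3W. DESeq2 called 4 members in LBDXL 3W against FH, 1733 genes and 2 members in BM 3D against BM 1D, 372 genes in FH Yap-/- against FH, and 1901 genes and 2 members in LBDXL 3W against BM 3W Yap-/-. A fit of only the groups compared called 1759 genes in LBDXL 3W against FH, 0 genes and 0 members in BM 3D against BM 1D, where edgeR over all groups called 742 genes, 3997 genes in LBDXL 3W against BM 3W, 4251 genes and 5 members in FH Yap-/- against FH, 4 members in BM 3W Yap-/- against FH Yap-/-, 169 genes and 0 members in LBDXL 3W against BM 3W Yap-/- and 4551 genes for the difference between effects. No filter on low counts left 1 member in BM 3W Yap-/- against FH Yap-/-. In limma on log2(FPKM + 1), log2(FPKM + 0.1) and log2(FPKM + 1) without a filter, members called were 6, 5 and 5 in LBDXL 3W against BM 3W, 6 in each in BM 3W Yap-/- against BM 3W and 2 in each in BM 3D against BM 1D. With the pseudocount of 1, with and without the filter, they were 1 and 0 in LBDXL 3W against FH and 2 and 2 in BM 3W against BM 3D. Limma without the filter called 7098 genes in BM 3W Yap-/- against BM 3W and 269 in FH Yap-/- against FH, and for the difference between effects the 3 limma fits called 4244, 4061 and 5532. The joint omission of LBDXL 3W 1 and BM 3W 2, chosen after seeing the data, gave 1830 genes in LBDXL 3W against FH, 1186 genes and 2 members in BM 3D against BM 1D, 234 genes in FH Yap-/- against FH and 1750 in LBDXL 3W against BM 3W Yap-/-. Signs turned for Cdh2 by total counts and the limma fits, at 0.047, 0.078, 0.084 and 0.078 in BM 3D against FH and 0.83, 0.84, 0.88 and 0.84 in BM 3W against FH, and for Nectin3 in BM 3W against FH at 0.075, 0.14, 0.16 and 0.14. Ctnnb1 in FH Yap-/- against FH was at 0.055, 0.13, 0.13 and 0.13, and from -0.058 to 0.0099 with single libraries left out. Cdh1 in BM 3W against BM 3D was at 0.14, 0.18, 0.19 and 0.18. In limma Gjb2 in LBDXL 3W against FH was at 0.10 in each fit, and Cdh1 in BM 3D against BM 1D at 0.071, 0.072 and 0.071 and from -0.18 to 0.084 with libraries left out. Gja1 in BM 3W against BM 3D was at 0.073 with DESeq2 or its size factors, 0.335 by total counts, 0.033 with only these groups, 0.27, 0.34 and 0.27 in limma, and -0.43 to 0.41 with libraries left out. It ran from -0.17 to 0.96 in BM 3D against BM 1D and from -1.32 to 0.13 in LBDXL 3W against BM 3W. Ctnnb1 ran from -0.18 to 0.25 in BM 3W against BM 3D, from -0.41 to 0.021 in BM 3W Yap-/- against BM 3W and from -0.39 to 0.046 for the difference between effects, and was at -0.18, 0.021 and 0.046 there without both libraries. Cdh5 in LBDXL 3W against BM 3W ran from -1.17 to 4.52 and was at -1.23 without both libraries, Cdh2 for the difference between effects ran from -0.69 to 0.21, and Gjb1 in BM 3W Yap-/- against FH Yap-/- was at 0.060 by total counts. Cdh2 in LBDXL 3W against BM 3W Yap-/- ran from -0.39 to 0.54 and was at 0.017 without a filter and 0.012 with only these groups. With the replicate block it was at 0.026, and Cdh1 in LBDXL 3W against FH passed (-0.71, edgeR adjusted p = 0.0414). Differences between libraries 1 and 2 correlated over 0.1 in 5 of 21 pairs of groups and under -0.1 in none (-0.02 to 0.46). The main model did not take the numbers as a pairing, and the replicate block was run as an alternative. By counts per kilobase the Cdh1 share was 37.6 and 31.7% in LBDXL 3W, 57.2 and 67.1% in BM 3W Yap-/-, 14.2 and 14.8% in FH Yap-/-, 30.1 and 28.7% in FH, 74.3 and 73.4% in BM 1D, 67.4 and 65.4% in BM 3D, and 53.6 and 59.3% in BM 3W. The causes of these changes were not tested.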
